A study of Mus musculus with 6 samples.

Results

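Klf12, its nearest relatives among the Krüppel-like factors (KLF) and the corepressors they recruit were examined as a set of 10 genes: Klf12, Klf3, Klf8, Klf4, Klf5, Klf6, Sp1, Sp3, Ctbp1 and Ctbp2. The set was chosen by name, and all 10 were found by NCBI gene number among the 17741 rows of the expression table. RNA-seq had been carried out on whole C57BL/6 mouse fetuses at 9.0 days post coitum (dpc), 3 wild type (WT) and 3 labelled as KLF12 overexpression, in a study of the mechanism by which raised KLF12 causes neural tube defects. No other allele or agent is named. The labels give neither the construct, its promoter and species, nor whether a library is 1 fetus or a pool, and the p-values therefore reflect library-to-library spread that could in part be technical.

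KLF and SP proteins are transcription factors with zinc fingers at the C-terminal end that read GC-rich elements, the CACCC box and the GC box. KLF12, KLF3 and KLF8 form one branch (group 1) that recruits the corepressors CTBP1 and CTBP2 through a short motif in the N-terminal part, and these bring histone deacetylases and the demethylase KDM1A to the promoter. KLF12 was first described as AP-2rep, a repressor of the AP-2alpha gene Tfap2a, which is needed for cranial neural tube closure and neural crest. KLF1, KLF2, KLF4, KLF5, KLF6 and KLF7 (group 2) mostly activate transcription, while KLF9, KLF10, KLF11, KLF13, KLF14 and KLF16 (group 3) bind the SIN3A corepressor.

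The elements read by this family occur in front of the group 1 genes themselves, and the sequences upstream of their annotated starts are shown because these 3 genes gave the widest differences in the set. They come from RefSeq (GRCm38.p6) and are cut where GENCODE M21 places an exon of the same gene. Each runs 5′ to 3′ on the gene's strand, with capitals marking CACCC or GGGCGG on either strand. The Klf12 stretch (chr14:100149797-100150046, minus strand) lies inside the gene, before an internal start, and holds 1 CACCC and 0 GGGCGG. The Klf3 stretch (chr5:64803271-64803387, plus strand), which an antisense transcript, Gm20033, overlaps, holds 2 CACCC and 5 GGGCGG. Of the Klf8 stretches, both within the gene on the plus strand, the first (chrX:153237512-153237747) holds 1 of each and the second (chrX:153359363-153359612) holds 3 CACCC and 1 GGGCGG.
Klf12: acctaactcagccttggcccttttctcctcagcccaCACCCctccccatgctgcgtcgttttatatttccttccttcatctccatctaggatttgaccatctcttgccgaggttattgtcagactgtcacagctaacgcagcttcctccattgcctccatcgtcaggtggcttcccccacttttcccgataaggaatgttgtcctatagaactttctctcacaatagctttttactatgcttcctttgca
Klf3: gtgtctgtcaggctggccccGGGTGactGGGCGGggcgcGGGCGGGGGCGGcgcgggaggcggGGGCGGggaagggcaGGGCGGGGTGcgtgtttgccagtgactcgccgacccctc
Klf8 first start: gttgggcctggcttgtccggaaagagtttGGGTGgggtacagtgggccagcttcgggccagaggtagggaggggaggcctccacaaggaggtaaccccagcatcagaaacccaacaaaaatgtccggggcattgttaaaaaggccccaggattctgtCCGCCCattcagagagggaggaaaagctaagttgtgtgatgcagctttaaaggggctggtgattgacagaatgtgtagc
Klf8 second start: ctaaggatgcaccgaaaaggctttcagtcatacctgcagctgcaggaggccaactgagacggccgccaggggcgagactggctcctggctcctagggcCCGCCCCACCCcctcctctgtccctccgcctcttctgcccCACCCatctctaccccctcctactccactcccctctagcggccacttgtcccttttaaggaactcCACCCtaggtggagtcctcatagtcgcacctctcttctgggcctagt
Over the full window of 250 bases before the RefSeq start, Klf3 had 5 CACCC and 6 GGGCGG matches and a GC content of 78.4%. Of these bases, 133 lie in a Klf3 exon of GENCODE M21, so the counts are not of upstream sequence alone. CACCC was found in 52% of 32851 such windows and GGGCGG in 32.7%. As many CACCC matches as at Klf3 were found in 0.667% of windows and as many GGGCGG matches in 0.886%, while 1.93% had as high a GC content. GGGCGG matches numbered 4 at Klf4, 4 at Sp1, 5 and 2 at Sp3, 1 at Klf6 and 0 at Ctbp2, whose levels overlapped between WT and KLF12 libraries. They numbered 2 at Ctbp1, 1 at each Klf8 start and 0 at Klf12. CACCC matches numbered 1 at Sp1, 1 at Ctbp1 and 0 at Klf4, Klf6, Sp3 and Ctbp2. Klf5 had no window. A relation between matches and differences was not tested. The letters can overlap each other, and a match is a description of the sequence, not a bound site.

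Values are FPKM, fragments per kilobase of transcript scaled to the mapped fragments of the library, so levels can be compared between genes. For Klf12 in the KLF12 libraries this holds only if the construct, which is not given, matches the annotated transcript in length. Differences are KLF12 minus WT on the log2(FPKM + 1) scale, which understates changes of low genes, with limma standard errors and p-values adjusted over all 12141 genes whose mean over the 6 libraries reached 1 FPKM. In all, 89 genes (0.733%) passed an adjusted p under 0.05, 12 higher (0.0988%) and 77 lower (0.634%). The groups did not overlap for 16.9% of the genes tested, 7.9% higher and 8.98% lower. KLF12 library 3 stood apart: it correlated by 0.957 and 0.951 with the other KLF12 libraries and by 0.955 to 0.959 with WT, against 0.972 between KLF12 libraries 1 and 2. The summed level of 4 Y-linked genes was 0 in KLF12 libraries 1 and 2, 25.1 FPKM in library 3 and 6.80 to 16.2 in WT. Without library 3, 319 genes (2.63%) passed, 0.725% of those tested being higher and 1.9% lower. That fit sets KLF12 libraries without Y-linked transcript against WT libraries that all have it. Fetal sex and group therefore cannot be told apart in it.

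Summed markers of several tissues differed between the groups, and their part in the values below was not tested. In bulk fetuses, fewer cells of a type and less RNA per cell cannot be told apart. All 10 primitive erythroid markers had negative differences, 0 called, and summed to 5124 to 11690 FPKM in WT and 1334 to 4257 in the KLF12 libraries. The 10 surface ectoderm and epithelial markers were also all negative, 1 called lower, with sums of 685 to 748 and 392 to 677. Visceral endoderm markers, 9 of 9 positive and 0 called, summed to 63.0 to 386 in WT and 279 to 430 in the KLF12 group. Neural progenitor markers summed to 65.0 to 69.6 in WT, to 62.7 and 72.8 in KLF12 libraries 1 and 2 and to 145 in library 3. Endothelial markers, 9 of 10 positive and 0 called, summed to 104 to 110 and 117 to 132. Mesoderm markers, with 2 of 6 positive, summed to 421 to 449 and 316 to 565, and the 4 gut endoderm markers, all positive, to 6.75 to 12.0 and 18.0 to 29.4, with 0 called in either list. No marker of these lists was at 0 in all libraries, so erythroid, ectodermal, endodermal, neural, endothelial and mesodermal RNA was present in the whole fetuses, as their label implies. The trophoblast and decidua markers analysed, 3 of 5 listed, summed to 1.06 to 14.6 in WT and 1.76 to 15.8 in the KLF12 group.

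Klf12 (NCBI gene 16597) was at 1.99, 2.11 and 1.32 FPKM in the WT libraries and at 16.4, 15.2 and 23.9 FPKM in KLF12 libraries 1, 2 and 3. All 3 KLF12 libraries lay far above all 3 WT libraries, and library 3 was the highest. The means were 1.81 ± 0.426 and 18.5 ± 4.75 FPKM (SD, n = 3 each), a ratio of 10.2. The log2 difference was 2.78 ± 0.22 (SE; 95% confidence interval 2.28 to 3.28), with a limma adjusted p of 0.00113, and was the 4th highest of the 12141 genes tested. It was the 1 called gene among the 8 of the 10 that passed the filter. An exact two-sided permutation test gave p = 0.1, the smallest value that 3 against 3 allows. The table gives 1 value for the gene, so transcript from a construct and from the endogenous locus is not separated.

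**Figure D1:**
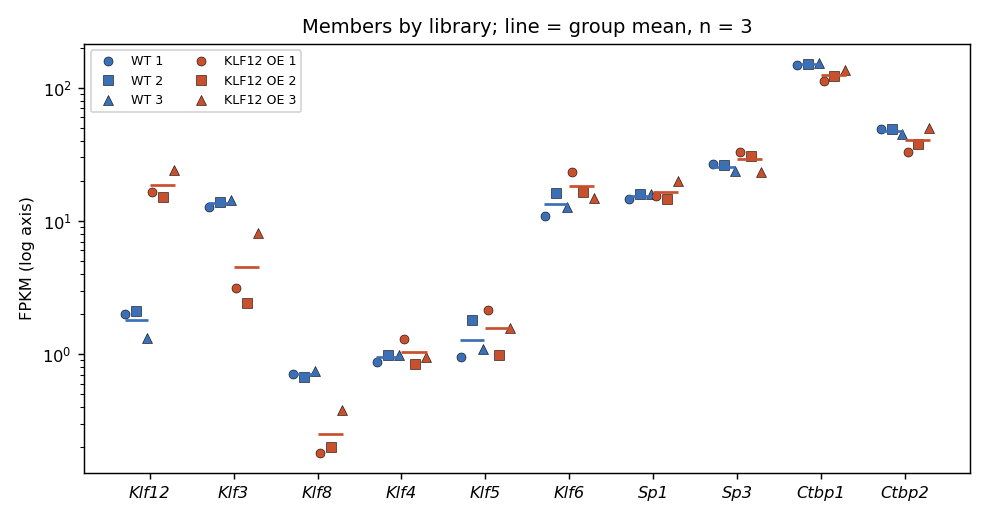
FPKM (log axis) of the 10 genes in each library, WT in blue and KLF12 overexpression in red, with horizontal lines for the group means (n = 3). Klf12 lay higher in all KLF12 libraries, Klf3, Klf8 and Ctbp1 lay lower in all of them, and the groups overlapped for the other 6 genes. Over all 12141 genes tested, the groups did not overlap for 16.9%. Klf8 and Klf4 lay below the filter and are not among those tested.

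The nearest measured genes on each side of Klf12 on chromosome 14 gave overlapping groups. Most were not close: 9 annotated genes lie between Klf12 and Klf5, and 12 between Klf12 and Tbc1d4. Klf5, the nearest measured gene on one side and itself in the set, had means of 1.28 ± 0.452 (WT) and 1.57 ± 0.580 FPKM (KLF12; SD, n = 3). On the other side the long noncoding RNA Gm41231, whose annotated end overlaps Klf12, was listed at 0 in 5 libraries and at 0.05 FPKM in WT library 1. At that level it could not show a lower value in the KLF12 group. Next beyond it among measured genes, Tbc1d4, a Rab GTPase-activating protein, was at 2.49, 4.37 and 3.45 FPKM in WT and at 2.27, 2.68 and 3.26 in the KLF12 libraries.

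Klf3, the other well-expressed repressor of group 1, lay the opposite way but did not pass the test. It was at 12.6, 13.9 and 14.4 FPKM in WT and at 3.12, 2.41 and 8.06 FPKM in KLF12 libraries 1, 2 and 3. The groups did not overlap, and library 3 lay between the other KLF12 libraries and WT. The log2 difference was -1.54 ± 0.33 (SE; 95% confidence interval -2.27 to -0.80), the 49th lowest of all genes tested, with a limma adjusted p of 0.0831. Without KLF12 library 3 the difference was -1.96 and the limma adjusted p 0.00258. In that fit no KLF12 library has Y-linked transcript and all WT libraries do, so fetal sex and group cannot be told apart. Klf3 is expressed in red cells, and the erythroid marker sums were 7026, 5124 and 11690 FPKM in the WT libraries and 1334, 3324 and 4257 in KLF12 libraries 1, 2 and 3. Their part in the Klf3 difference was not tested.

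Klf8, the X-linked member of group 1 and a gene that KLF3 is known to repress in red cells, was the lowest of the set. It was at 0.71, 0.67 and 0.75 FPKM in WT and at 0.18, 0.20 and 0.38 FPKM in the KLF12 libraries, with no overlap and library 3 again nearest to WT. At a mean of 0.482 FPKM it lay below the filter. In the fit without a filter (0.163% of 17741 rows called) its difference was -0.45 ± 0.11 (SE), with an adjusted p of 0.262. Library 3 differed from libraries 1 and 2 in the Y-linked sum too, and the part of fetal sex was not tested. At so low a level the pseudocount sets the size: the difference was -1.24 at a pseudocount of 0.1. The ratio of group means, WT over KLF12, was 2.80 for Klf8 and 3.01 for Klf3.

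The make-up of the KLF transcripts differed accordingly. Klf12 was 1.67% to 2.64% of the summed FPKM of the 16 measured KLF genes in WT and 18.7% to 23.9% in the KLF12 libraries. It ranked 11th, 11th and 12th of the 16 in WT, and 2nd, 2nd and 1st in the KLF12 libraries. Klf3 was 15.9% to 18.2% of the sum in WT and 3.12% to 8.06% in the KLF12 group, and Klf8 0.837% to 0.948% and 0.205% to 0.380%. The group 1 share was 20.3% ± 0.866 in WT and 25.9% ± 5.59 in the KLF12 group (SD, n = 3), and was 22.5%, 23.0% and 32.4% in the 3 KLF12 libraries. The ratio of Klf12 to Klf3 was 0.0919 to 0.157 in WT and 2.97 to 6.29 in the KLF12 libraries. Without Klf12 the summed KLF level was 77.6, 77.9 and 77.8 FPKM in WT and 71.5, 62.2 and 76.1 in the KLF12 libraries. These shares follow from the levels above and were not tested on their own.

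**Figure D2:**
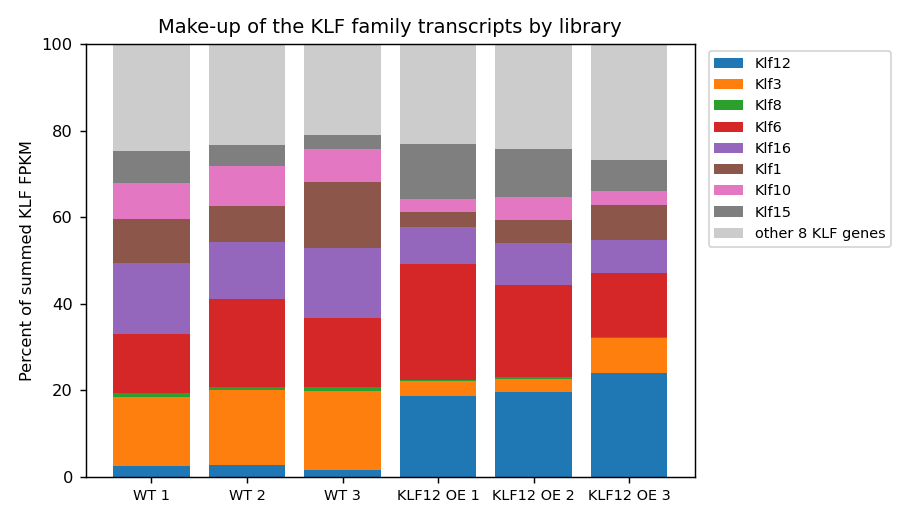
Share of the summed FPKM of the 16 measured KLF genes (percent, stacked bars) in each library, with 8 genes drawn singly and the other 8 KLF genes in light grey. Klf12 takes 18.7% to 23.9% in the KLF12 libraries against 1.67% to 2.64% in WT, and Klf3 3.12% to 8.06% against 15.9% to 18.2%.

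The group 2 genes of the set gave overlapping groups. Klf6, an early-response factor of tissue remodelling, was at 10.9, 16.3 and 12.6 FPKM in WT and at 23.4, 16.6 and 14.8 in KLF12 libraries 1, 2 and 3, so that libraries 1 and 2 lay above WT and library 3 within it. Its log2 difference was 0.42 ± 0.21 (SE; limma adjusted p = 0.513). Klf5, a factor of epithelial and pluripotent cells, was at 0.96, 1.80 and 1.09 FPKM and at 2.15, 0.99 and 1.56, a difference of 0.16 with a 95% confidence interval of -0.47 to 0.79. Klf4, known from epithelial barrier formation and reprogramming, was at 0.87, 0.98 and 0.99 FPKM in WT and at 1.29, 0.85 and 0.96 in the KLF12 libraries. Its mean of 0.990 FPKM lay just below the filter, and without a filter the difference was 0.06 with an interval of -0.31 to 0.42. At levels near 1 FPKM the pseudocount limits how far a value can fall on this scale, so the lower bounds of both intervals say little about a loss of Klf4 or Klf5.

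Outside the set, Klf1, the erythroid factor, was at 8.15, 6.66 and 12.1 FPKM in WT and at 3.21, 4.09 and 8.07 in the KLF12 libraries (difference -0.75 ± 0.31, SE; limma adjusted p = 0.423). WT library 3 had both the highest Klf1 and the highest erythroid sum and KLF12 library 1 the lowest of both, but the orders differed in between: KLF12 library 3 had more Klf1 than WT library 2 at a lower sum. The part of erythroid content in Klf1 was not tested. Klf2, known from flow-exposed endothelium, was at 2.11 to 3.31 FPKM and 3.69 to 5.30, without overlap (adjusted p = 0.393), and endothelial marker sums did not overlap either. Within the KLF12 group the orders differed: library 1 had the lowest Klf2 (3.69) and the highest endothelial sum (132). The part of endothelial content in Klf2 was not tested. Klf7, a factor of neurons, was at 1.85 to 5.03 and 4.04 to 5.20 FPKM.

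In group 3 the values went both ways. Klf10, induced by TGF-beta, was at 6.52, 7.46 and 6.04 FPKM in WT and at 2.48, 4.12 and 3.28 in the KLF12 libraries, a difference of -0.85 ± 0.21 (SE; limma adjusted p = 0.138). Klf16 was at 13.0, 10.4 and 12.7 FPKM in WT and at 7.49, 7.45 and 7.43, a difference of -0.62 ± 0.16 (SE; adjusted p = 0.154). Both lay lower in all KLF12 libraries, and library 3 did not stand out for either. Klf9, a target of glucocorticoid and thyroid hormone, was at 0.47, 0.67 and 0.44 FPKM in WT and at 1.51, 1.35 and 1.49 in the KLF12 libraries. It lay below the filter, and without a filter the difference was 0.68 with an adjusted p of 0.185. Klf13 was at 4.77 to 5.64 FPKM in WT and at 2.24, 2.81 and 7.36 in the KLF12 libraries, where library 3 lay above WT and the others below. Klf15, a metabolic regulator outside these groups, was at 5.92, 3.94 and 2.58 FPKM in WT and at 11.3, 8.56 and 7.25 (difference 0.99 ± 0.27, SE; adjusted p = 0.178). The visceral endoderm sums were 386, 134 and 63.0 FPKM in the WT libraries and 308, 430 and 279 in the KLF12 libraries. The order of Klf15 matched that of the sums within WT but not within the KLF12 group, and their part in Klf15 was not tested.

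Sp1 and Sp3, broadly expressed factors that bind the GC box at many promoters, had overlapping groups. Sp1 was at 14.6, 16.1 and 15.8 FPKM in WT and at 15.3, 14.5 and 19.9 in the KLF12 libraries, with library 3 above all others. The difference was 0.08 with a 95% confidence interval of -0.27 to 0.44, and -0.05 without library 3. Sp3 was at 26.8, 26.1 and 23.5 FPKM in WT and at 33.0, 30.6 and 23.2 in the KLF12 libraries, with library 3 below all others, a difference of 0.16 (-0.19 to 0.52). Sp5, a Wnt target of the tail bud, was at 6.30 to 13.6 FPKM and 14.7 to 17.3, without overlap (limma adjusted p = 0.373). Sp6, an ectodermal factor, was at 13.3 to 14.1 and 7.23 to 11.8 FPKM, also without overlap (adjusted p = 0.312), and epithelial marker sums were lower in the KLF12 group as well. Within the KLF12 group the orders differed: library 3 had the highest Sp6 (11.8) and the lowest epithelial sum (392). The part of epithelial content in Sp6 was not tested. Without KLF12 library 3, where Y-linked transcript goes with group, the limma adjusted p for Sp6 was 0.0444.

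Over the KLF and SP families, 25 of 26 listed genes had a row and 21 passed the filter. Of these, 1 rose, Klf12 itself, and 20 did not pass. Without Klf12, 3 lay higher without overlap, 5 lower without overlap and 12 overlapped, beside 7.9% higher and 8.98% lower without overlap (16.9% in all) over all genes tested. The median difference of the 20 was 0.08, against -0.02 over all genes tested, with 11 positive and 9 negative values. Without KLF12 library 3, where Y-linked transcript goes with group, Klf3 and Sp6 were called lower and no gene but Klf12 higher. Over all genes tested, 0.733% were called with all libraries and 2.63% without KLF12 library 3, so these counts say little about the families.

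**Figure D3:**
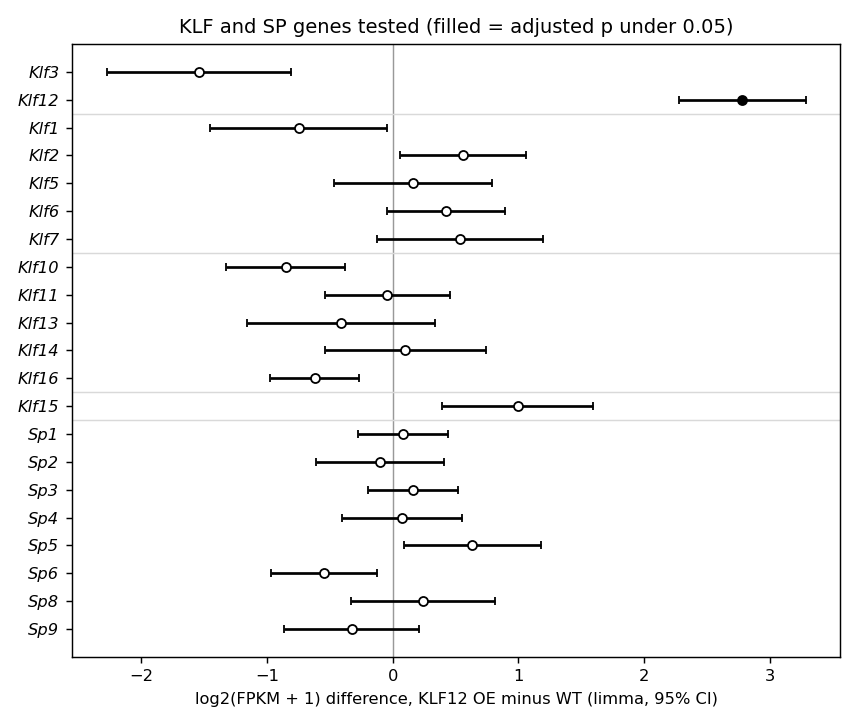
Differences on the log2(FPKM + 1) scale (KLF12 minus WT, points) with 95% confidence intervals (bars) for the 21 KLF and SP genes tested, with grey lines between groups 1, 2 and 3, Klf15 and the SP factors. The filled point, Klf12 at 2.78, is the 1 gene with a limma adjusted p under 0.05, and Klf3 has the lowest value, -1.54.

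The CtBP corepressors were the most abundant genes of the set. Ctbp1 was at 147, 150 and 152 FPKM in WT and at 113, 122 and 137 in KLF12 libraries 1, 2 and 3. It was lower in all 3 KLF12 libraries, with library 3 nearest to WT. The means were 149.8 ± 2.38 and 124 ± 11.9 FPKM (SD, n = 3), a difference of -0.28 ± 0.12 (SE; 95% confidence interval -0.54 to -0.01; limma adjusted p = 0.433). Ctbp2 was at 48.9, 49.0 and 44.9 FPKM in WT and at 32.9, 37.7 and 49.9 in the KLF12 libraries, where library 3 lay above WT and the others below. Its difference was -0.26 (interval -0.62 to 0.10). The ratio of Ctbp1 to Ctbp2 was 3.15 ± 0.201 in WT and 3.14 ± 0.362 in the KLF12 group (SD, n = 3). Summed CtBP transcript per group 1 KLF transcript, both in FPKM, was 12.0 to 12.8 in WT and 5.76 to 9.00 in the KLF12 libraries. The divisor includes Klf12, the overexpressed gene. The CtBP sum was itself lower in part, through Ctbp1 in all 3 KLF12 libraries and Ctbp2 in libraries 1 and 2. The lower ratio mixes these differences and is not a result about CtBP alone. Klf3 and Klf8, the rest of the divisor, were lower in all KLF12 libraries.

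Of 20 tested genes of the CtBP lists (Ctbp1 and Ctbp2, 13 enzymes and adaptors of the complex and 5 other DNA-binding partners), 0 were called by limma. At an unadjusted p under 0.05, 1 lay higher and 2 lower, while 4.57% of all genes tested lay higher and 6.32% lower (10.9% in all). The median difference was -0.01. Kdm1a, the histone demethylase of the complex, ranged over 73.8 to 85.1 (WT) and 64.8 to 75.5 FPKM (KLF12; adjusted p = 0.550). The deacetylases Hdac1 and Hdac2 had WT means of 156 ± 2.42 and 143 ± 4.03 FPKM and KLF12 means of 148 ± 10.7 and 151 ± 27.1 FPKM (SD, n = 3). Rcor2, a CoREST scaffold, was at 63.4 to 73.9 FPKM in WT and at 50.4, 50.2 and 93.1 in the KLF12 libraries, and Rcor3 at 2.11 to 4.39 and 1.13 to 1.62, without overlap. Zeb2, a zinc finger repressor of neural crest and neural development that binds CtBP, was at 6.35, 5.65 and 6.10 FPKM in WT and at 10.01, 8.92 and 10.4 in the KLF12 libraries. Its groups did not overlap, with a difference of 0.61 ± 0.16 (SE; adjusted p = 0.161), and Cdyl, a chromodomain corepressor, differed by 0.36 (adjusted p = 0.462).

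Of the AP-2 genes and reported KLF12 targets, 0 of 5 tested were called. Over all genes tested 0.733% were called, so a count of 0 in so short a list says little. Tfap2a was at 8.66, 6.96 and 9.66 FPKM in WT and at 7.15, 4.29 and 8.32 in the KLF12 libraries. The groups overlapped, and the difference was -0.34 with a 95% confidence interval of -0.88 to 0.20. Tfap2c was at 5.49 to 6.91 and 4.71 to 5.17 FPKM, without overlap (limma adjusted p = 0.655). Nr4a1, a nuclear receptor that KLF12 is known to repress in decidual cells, was at 2.20 to 3.79 and 2.63 to 4.41 FPKM. Tfap2b and Foxo1 had overlapping groups, with differences of -0.03 and 0.06. All 5 Sin3 corepressor genes tested had overlapping groups.

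**Figure D4:**
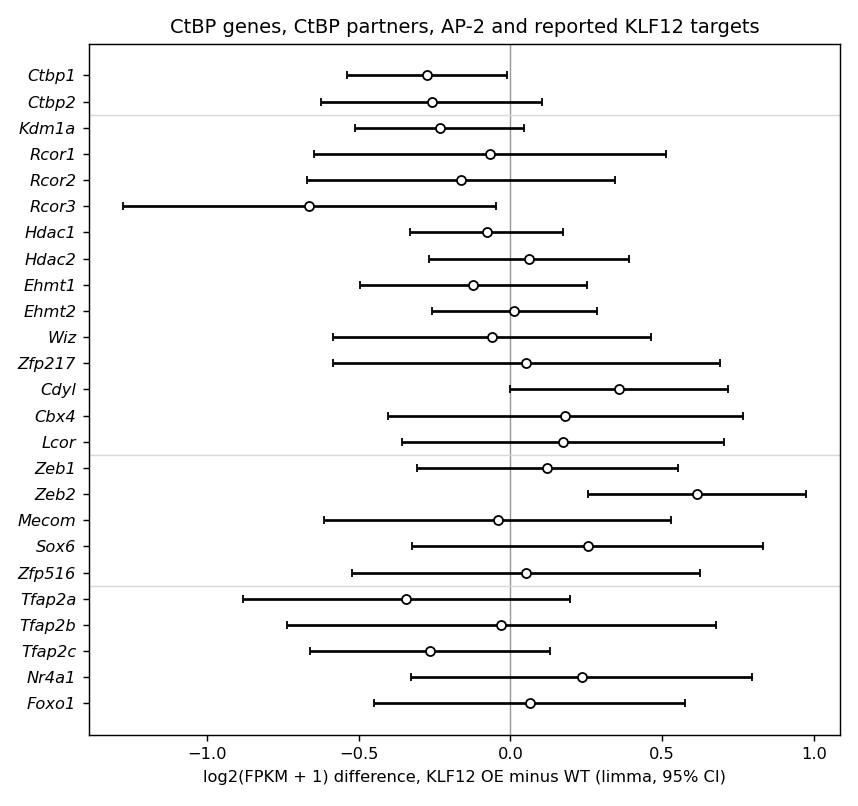
Differences on the log2(FPKM + 1) scale (KLF12 minus WT, points) with 95% confidence intervals (bars) for Ctbp1 and Ctbp2, 13 complex genes, 5 other CtBP partners and 5 AP-2 or reported target genes, separated by grey lines. All points are open because 0 had a limma adjusted p under 0.05, and the highest of the partners is Zeb2 at 0.61.

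By level, the order in WT was Ctbp1, Ctbp2, Sp3, Sp1, Klf3, Klf6, Klf12, Klf5, Klf4 and Klf8. The ranges of the 3 libraries overlapped between the neighbours Klf3 and Klf6, Klf12 and Klf5, and Klf5 and Klf4. In the KLF12 group Klf12 stood 4th, after Ctbp1, Ctbp2 and Sp3, and its range overlapped those of its neighbours Sp3 and Klf6. Klf3 stood 7th there, with no overlap with its neighbours Sp1 and Klf5.

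The genes whose log2 values followed Klf12 most closely over the 6 libraries were Zscan25, Ypel2 and Chd1, with Pearson r of 0.993, 0.991 and 0.991. Such values describe 6 libraries of 2 groups and so largely restate the group difference. Zscan25, a zinc finger gene, was at 6.19 to 6.57 FPKM in WT and 8.91 to 10.3 in the KLF12 libraries. The lowest r were those of Stap2, Adcy4 and Anxa5, at -0.999, -0.998 and -0.996. Anxa5, a phospholipid-binding annexin, was at 54.1, 52.6 and 54.4 FPKM in WT and at 17.3, 19.6 and 13.8 in the KLF12 libraries. It was lowest in library 3, where Klf12 was highest, an order that follows from its choice by r. Anxa5 was called by limma (adjusted p = 0.00214), and the others chosen by r were not (0.228 to 0.518). For comparison, r was -0.79 for Klf3 and -0.80 for Ctbp1, whose values in library 3 lay nearest to WT.

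Leaving out single libraries moved the members unequally. The difference of Klf12 was 2.59 to 2.91 with each library left out, and was called each time. For Klf3 it was -1.96 to -1.26, called without KLF12 library 3, where Y-linked transcript goes with group, and not otherwise. The range was -0.35 to -0.21 for Ctbp1 and -0.42 to -0.13 for Ctbp2, with 0 calls.

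**Figure D5:**
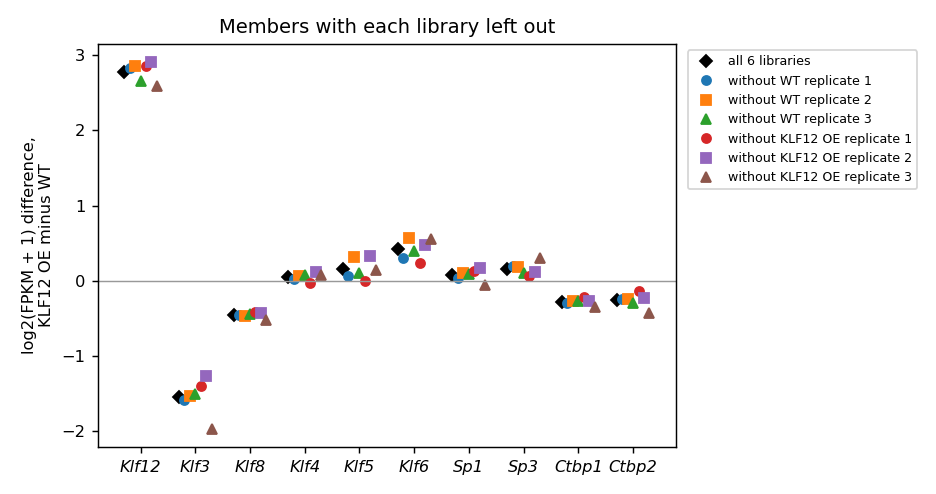
Difference on the log2(FPKM + 1) scale (KLF12 minus WT) of the 10 genes with all 6 libraries (black) and with each library left out (colours). Klf12 stays between 2.59 and 2.91, while Klf3 moves from -1.54 to -1.96 without KLF12 library 3.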

How the data were processed

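RNA was extracted with Trizol and libraries were made by Illumina protocols, per the labels' protocols. The authors deposited FPKM values for 6 libraries. CASAVA, HISAT2 2.0.4, RSEM 1.2.8 and mm9 are named, without role, per the submitters' processing notes; annotation and strandedness are not given in the sources used here, so reads of antisense transcripts cannot be told apart. Of 17741 rows, 16874 took a symbol from RefSeq (GRCm38.p6), which differs in build from mm9, so coordinates are given in GRCm38.p6 and only for the printed promoter stretches. The table holds no counts. In genes with 1 GENCODE M21 transcript, low values had a step that corresponds to about 16600000 to 18000000 fragments per library, but whole fragments were not recovered. Values were fitted as log2(FPKM + 1) with limma 3.58.1 (R 4.3.3, variance trend) for a mean of at least 1 FPKM, with Benjamini-Hochberg adjustment, and tested on simulated data. Members, lists and named genes (members, KLF, SP, CtBP, AP-2 and target lists, the 3 highest and 3 lowest correlations with Klf12, and its neighbours) were chosen with earlier results of these data known. Not all genes of this rule are named. Nearest measured genes beside Klf12 were added after its nearest annotated ones proved to have a row in 1 case. Alternatives covered pseudocount, filter, scaling, variance model, weights, a replicate block and each library left out.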

Additional observations from a re-analysis of the deposited data

How the results depend on the processing

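The Klf12 difference kept its direction and call in all 16 alternatives, at 2.59 to 3.28 with limma adjusted p of 2.87e-05 to 0.0172. The number of genes called was 29 without a filter, 51 as TPM, 1585 with array weights and 14 to 319 with each library left out, against 89. The count of KLF and SP genes called, 1 of 21 tested, became 9 with array weights and 1 to 3 with each library left out. That of CtBP genes, 0 of 20 tested, became 4 with array weights. These counts stand beside 1585 of all 12141 genes called with array weights, so they are not read as results about the lists. Beside Klf12, array weights, which down-weight libraries far from their group, called Klf3 (-1.81), Klf6 (0.66), Ctbp1 (-0.38) and Ctbp2 (-0.46) among the members. Klf5, Sp1 and Sp3 were not called. KLF12 library 3, which stood apart, is the only KLF12 library with Y-linked transcript. The part of fetal sex in the calls with array weights was not tested. The difference of Sp1 turned to -0.0120 with array weights and ran from -0.0484 (without KLF12 library 3) to 0.165 with each library left out. That of Hdac1 turned to 0.0017 with quantile normalization, and that of Hdac2 ran from -0.0583 (without KLF12 library 2) to 0.203. None of these was called, and for all of them the cause was not tested. Same-numbered WT and KLF12 libraries had correlations of their deviations of 0.03, -0.11 and 0.04, so the numbers were not taken to pair samples; with the replicate block 64 genes were called, Klf12 among them (2.78, adjusted p = 0.00874), and 1 KLF or SP gene. The file gives no counts, so the precision of low values such as those of Klf8 is limited and was not computed.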
